A study of Mus musculus with 15 samples.

Results

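Culture adaptation of CIZ1 null embryonic fibroblasts was described from 6 of the 15 RNA-seq samples of the series, taken by their labels alone: 3 primary populations and 3 culture-adapted lines. All 6 came from female C57BL/6 mice homozygous for a gene-trap insertion in Ciz1, and each primary population and its adapted line came from the same embryo, E13.15, E13.17 or E14.2. Primary cells were collected before passage 5. Adapted lines arose by continued passage without dilution, in which the colonies that emerged were replated together, so that each line is a single population with its own history. The primary and the adapted cells of E13.17 also held a GFP-CIZ1 transgene that doxycycline can induce, and none of the 6 samples was treated. Of the other samples, 3 primary and 3 adapted wild-type (WT) populations are used below for comparison, 1 further untreated transgenic primary sample only as an alternative, and 2 doxycycline-treated samples not at all.

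Embryonic fibroblasts are the matrix-producing cells of connective tissue, and they also act as sentinels that release complement, serum amyloid and chemokines when innate immune receptors or the transcription factor NF-kappaB are active. Continued passage on plastic in serum selects for cells that escape growth arrest, a process in which loss of the p53 or the Cdkn2a pathway is a well-known event in mouse cells. CIZ1 is a nuclear matrix protein that binds the Xist RNA on the inactive X chromosome and takes part in the start of DNA replication.

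Values are FPKM (fragments per kilobase of transcript, scaled to library depth) for each transcription unit that the authors assembled, and where a gene had several units the one with the highest level is given unless another is named. Changes are differences of mean log2(FPKM + 1), adapted minus primary, with the limma standard error (n = 3 per group), and values of 3 samples are always in the order E13.15, E13.17 and E14.2. Of 20044 units with a mean of at least 1 FPKM over the 6 samples, 280 were higher and 695 lower in adapted cells at an adjusted p under 0.05, which is 1.4% and 3.47% of those tested and 4.86% in all. The groups did not overlap in 17.5% of units that were higher and 19.6% that were lower. Each of the 975 called units moved the same way in all 3 lines against their own primary cells. With the embryo as a block in the fit, 10 of the 975 stayed called (5 higher and 5 lower, each 0.0249% of units). The adjusted p of the 975 in that fit ran from 0.00516 to 0.115 with a median of 0.0913, and it is printed as the blocked adjusted p beside each call.

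The adapted libraries were shallower and less alike than the primary ones. Judged by the smallest FPKM steps, their depth relative to primary E13.15 was 0.743, 0.708 and 0.448, against 1 to 1.2 in the primary libraries. Correlations between adapted lines across units were 0.826 to 0.885, and those between primary populations 0.935 to 0.961. Left out in turn, adapted E13.15 raised the number of calls from 975 to 2999, while each other library lowered it: adapted E13.17 to 784, adapted E14.2 to 40, primary E13.15 to 30, primary E13.17 to 30 and primary E14.2 to 25. Without adapted E13.15 5.09% of units were called higher and 9.87% lower, and the shares were 1.2% and 2.74% without adapted E13.17 and 0.0652% and 0.135% without adapted E14.2. When primary E13.15, primary E13.17 or primary E14.2 was left out 0.0399%, 0.03% or 0.0349% were called higher and 0.11%, 0.12% or 0.0897% lower. Only 6 of the 280 higher and 5 of the 695 lower units were called in all 6 of those fits. The changes also followed transcript GC content. Of 5 equal groups of units by GC, the lowest (median 41.3%) had a median change of 0.36 and the highest (57.9%) of -0.45, nearly alike in all 3 lines and in WT cells, and with a per-sample trend on GC content and length removed 227 of the 942 called units with a GC value stayed called. In that fit 0.397% of 19373 units were called higher and 0.857% lower, 1.25% in all. Where that removal ended a call, the adjusted p of that fit is given as the GC-corrected adjusted p, and the part of GC content in a result was otherwise not tested. Ciz1 lay between 0.0546 and 0.724 FPKM in all 6 samples, against 18.7 to 25 FPKM in the 6 WT samples. Of the defining markers of other tissues, Epcam of epithelium, Myod1 of muscle and the muscle creatine kinase Ckm were listed at 0 in all 6, while the epithelial keratins Krt8, Krt18 and Krt19 and the cardiac Tnnt2 were measured in primary cells. Krt18 was at 3.27, 0.952 and 3.3 FPKM in primary and 0.0746, 0 and 0 FPKM in adapted cells (limma adjusted p = 0.0528), Krt8 at 8.06 FPKM in primary E13.15 and listed at 0 in the other samples.

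**Figure D1:**
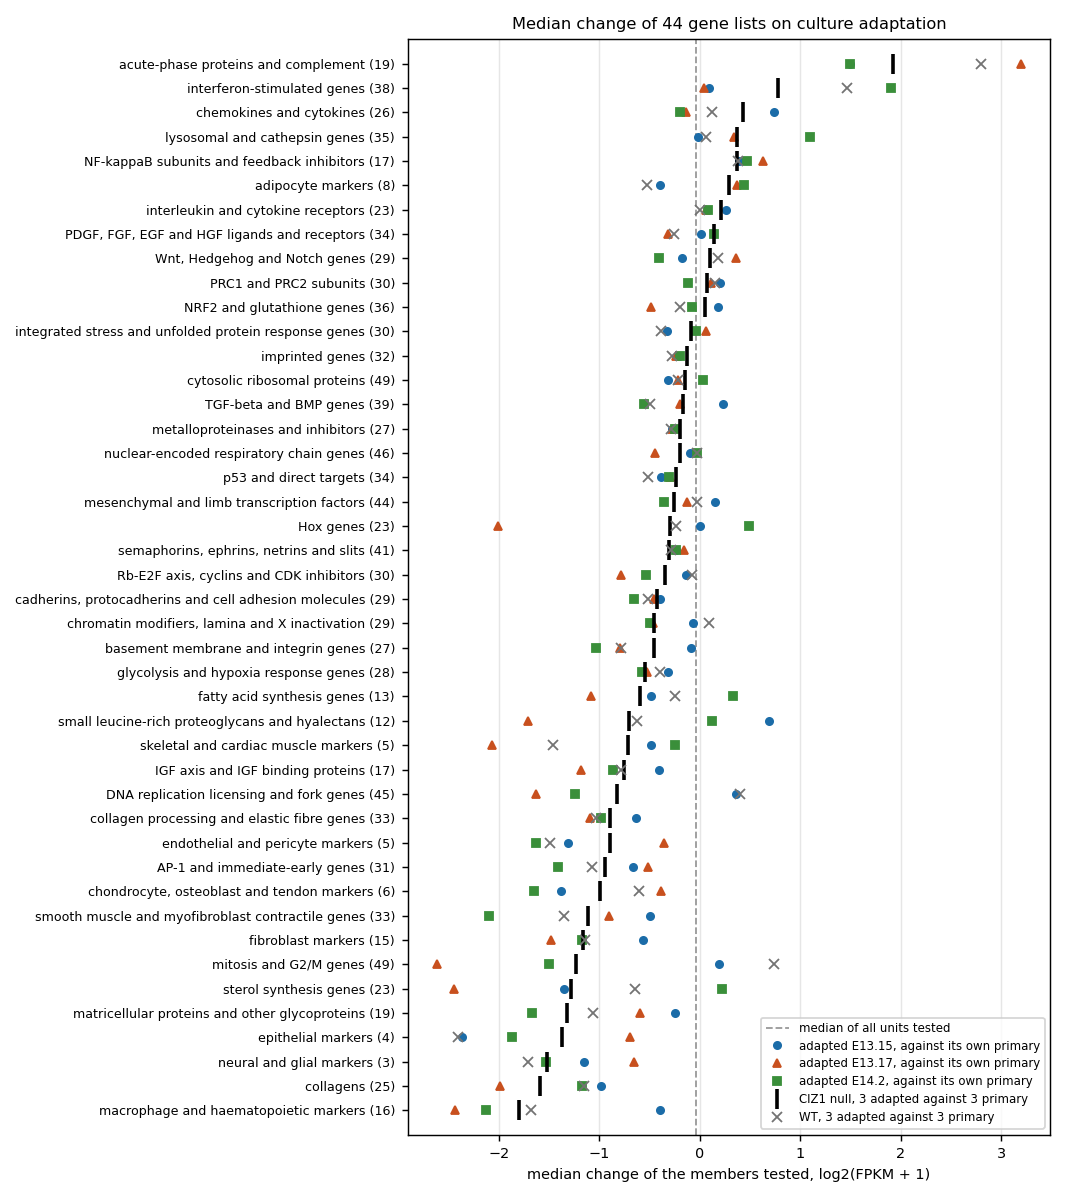
Median change (x axis, log2(FPKM + 1)) of the tested members of each of 44 gene lists (y axis, number tested in parentheses). Black bars are the 3 adapted against the 3 primary CIZ1 null samples, coloured symbols each adapted line against its own primary population, grey crosses WT cells and the dashed line the median of all units tested. Grey crosses cover only those members that also passed the filter in WT cells. Acute-phase and complement genes lie furthest to the right at 1.92, macrophage markers furthest to the left at -1.80, and the 3 lines stand apart for mitosis genes.

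Secreted proteins of the innate immune response were higher in the adapted lines. Of the 19 acute-phase and complement genes tested, 7 rose, none fell and the groups did not overlap for 11, all higher. All 19 had a positive change in the group means, while by line 15, 17 and 16 rose. The unit that holds C2 and Cfb was flat, with a change of 0.03 and 1.44, -0.98 and -0.36 by line (limma adjusted p = 0.977). Their median change was 1.92, against -0.04 over all units. The summed level of the list was 224, 300.3 and 257 FPKM in the primary populations and 5671, 8113 and 4985 FPKM in their adapted lines. When a library was left out 3 to 7 members were called, with 3 without primary E13.17 or E14.2 and 4 without primary E13.15. With the GC and length trend removed 6 were called.

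The largest rise was that of serum amyloid A, a lipoprotein component released in inflammation. The unit that joins Saa1 and Saa3 (chr7:46711996-46754314, GRCm38) stood at 18.3, 6.91 and 5.06 FPKM in primary and 4831, 4847 and 3982 FPKM in adapted cells. All 3 adapted lines lay far above all 3 primary populations. Its log2 change was 8.86 ± 0.43 (limma adjusted p = 0.00133, blocked adjusted p = 0.0155). A second unit of Saa3 in the same locus went from 0.223, 0.838 and 0.71 to 188, 196 and 171 FPKM, with an adjusted p of 0.0131 in the blocked limma fit. Lcn2 encodes lipocalin 2, which binds bacterial siderophores and so withholds iron. It measured 0.333, 0.653 and 0.178 FPKM in primary and 156, 414 and 28.2 FPKM in adapted cells, the lowest of the adapted lines being E14.2, and changed by 6.50 ± 0.90 (limma adjusted p = 0.0248, blocked adjusted p = 0.0708). Ceruloplasmin (Cp), the copper-carrying ferroxidase, rose from 0.439, 0.753 and 0.606 to 20, 141 and 147 FPKM, least in E13.15 (change 5.58 ± 0.74, limma adjusted p = 0.0235, blocked adjusted p = 0.0708).

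Complement genes of the classical pathway and the common step were among them. C3, the central component at whose cleavage the complement pathways meet, was at 2.8, 1.2 and 0.745 FPKM in primary and 160.0, 162 and 57.1 FPKM in adapted cells, with a change of 5.56 ± 0.49 (limma adjusted p = 0.0135, blocked adjusted p = 0.031). C1s1, the serine protease of the C1 complex, was at 4.17, 4.45 and 6.78 FPKM in primary and 124, 136 and 162 FPKM in adapted cells. The adapted lines were close to each other and far from the primary cells (change 4.55 ± 0.23, limma adjusted p = 0.00133, blocked adjusted p = 0.0173). C1ra, the protease that activates C1s, changed by 3.78 ± 0.25 from 3.31, 2.24 and 4.44 FPKM to 53.6, 68.4 and 51.4 FPKM (limma adjusted p = 0.00508, blocked adjusted p = 0.0708). Pamr1, a secreted protein with a protease-like domain, was at 1.41, 1.97 and 1.39 FPKM in primary and 15.9, 12.7 and 9.31 FPKM in adapted cells for the higher of its 2 units (change 2.37 ± 0.24, limma adjusted p = 0.0194, blocked adjusted p = 0.0708), and the other unit changed by 1.96 ± 0.20 (limma adjusted p = 0.0194, blocked adjusted p = 0.0708). Other complement genes were high in single lines. C4b was at 0.204, 0.133 and 0.533 FPKM in primary and 0.187, 11.9 and 0.0896 FPKM in adapted cells, high in adapted E13.17 (limma adjusted p = 0.509). The highest of the units of clusterin (Clu), a complement inhibitor and chaperone, was listed at 0 in the others and at 217 FPKM in adapted E13.17 (limma adjusted p = 0.432), and its other unit was at 3.24, 3.68 and 1.85 FPKM in primary and 7.12, 172 and 2.36 FPKM in adapted cells, so those zeros are not an absence of Clu (limma adjusted p = 0.341).

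The innate receptor Tlr2 and the caspase Casp4 rose too, while only 2 of 26 chemokines and cytokines did. Tlr2, the receptor for bacterial lipopeptides, was at 0.766, 0.926 and 1.09 FPKM in primary and 12.4, 9.02 and 21.2 FPKM in adapted cells (change 2.90 ± 0.31, limma adjusted p = 0.0209, blocked adjusted p = 0.0708). Casp4, the caspase that binds cytosolic lipopolysaccharide, was at 0.401, 0.655 and 0.43 FPKM in primary and 10.9, 40.8 and 19 FPKM in adapted cells, and changed by 3.85 ± 0.44 (limma adjusted p = 0.0209, blocked adjusted p = 0.0708). No primary population reached the lowest adapted line in either gene. Among 26 chemokines and cytokines tested, only Cxcl12 and Cxcl1 rose and none fell. Without overlap 2 were higher and 3 lower, both below the shares over all units, 17.5% and 19.6%. The list median was 0.43, with 0.74, -0.14 and -0.20 by line. When libraries were left out 5 rose without adapted E13.17, 2 rose and 3 fell without adapted E13.15, and 0 were called without any 1 of the others. Cxcl12, the stromal ligand of CXCR4, was at 48.9, 112 and 63.7 FPKM in primary and 339, 724 and 456 FPKM in adapted cells, rising 2.76 ± 0.40 (limma adjusted p = 0.0262, blocked adjusted p = 0.0586). Cxcl1, which attracts neutrophils, stood at 12.1, 11 and 30.8 FPKM before and 82.2, 58.6 and 74.3 FPKM after adaptation, a change of 2.08 ± 0.40 (limma adjusted p = 0.0431, blocked adjusted p = 0.0899, GC-corrected adjusted p = 0.066). The monocyte attractant Ccl2 differed by line, at 248, 139 and 294 FPKM in primary and 1180.2, 60.2 and 973 FPKM in adapted cells (limma adjusted p = 0.609).

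On the list of NF-kappaB subunits and feedback genes no subunit passed the test, while the regulators Nfkbia and Nfkbiz did. Of 17 genes on that list 2 rose, 8 were higher and 1 lower without overlap, and the median change was 0.37. Nfkbia, which encodes the inhibitor that holds NF-kappaB in the cytoplasm, was at 9.51, 9.92 and 12.4 FPKM in primary and 43.9, 44.4 and 29.7 FPKM in adapted cells (change 1.78 ± 0.23, limma adjusted p = 0.0215, blocked adjusted p = 0.0826). Nfkbiz, a nuclear regulator induced by the pathway, changed by 1.49 ± 0.27 (limma adjusted p = 0.0387, blocked adjusted p = 0.102, GC-corrected adjusted p = 0.0521). The subunit Rela was at 37.8, 37.3 and 34.7 FPKM in primary and 34.8, 31.6 and 39 FPKM in adapted cells (limma adjusted p = 0.828), and Relb at 4.76, 7.53 and 9.28 FPKM in primary and 14.4, 16 and 19 FPKM in adapted cells (limma adjusted p = 0.0577). Sod2, the mitochondrial superoxide dismutase, rose from 11.7, 11.7 and 12.1 to 32.5, 37.4 and 59 FPKM (limma adjusted p = 0.0262, blocked adjusted p = 0.0755, GC-corrected adjusted p = 0.0594).

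Promoters of the acute-phase, chemokine, NF-kappaB and collagen lists were searched for the NF-kappaB consensus. Tlr2, Casp4 and Sod2, on none of these lists, were added by hand. Of the genes that rose and hold it within 250 bases before the transcription start, 4 are shown to let the reader see the site. Sod2 and the acute-phase gene Serpina3g also held it and are not shown. Each line gives a window from RefSeq on GRCm38, written 5′ to 3′ on the strand of the gene, with the consensus in capitals.
Cxcl1, chr5:90891164-90891193, plus strand: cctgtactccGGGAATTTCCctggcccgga
Nfkbia, chr12:55492657-55492686, minus strand: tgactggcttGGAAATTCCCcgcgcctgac
Tlr2, chr3:83841761-83841790, minus strand: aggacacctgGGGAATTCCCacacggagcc
Casp4, chr9:5308746-5308775, plus strand: atgagttacaGGGGATTTCCccacagcagt
Over all 27025 RefSeq genes with such a window, 8.23% held the consensus on either strand. Of 8 acute-phase and complement genes in units that rose, all with a sequence, 1 held it, Serpina3g. The collagens, which fell, held it as well: 3 of 21 with a sequence (14.3%), and 2 of the 9 of these that were called. The sites shown are therefore not particular to genes that rose. Too few members of the immune lists had a promoter sequence to give a share over a list, and a match is a description of the sequence only.

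**Figure D2:**
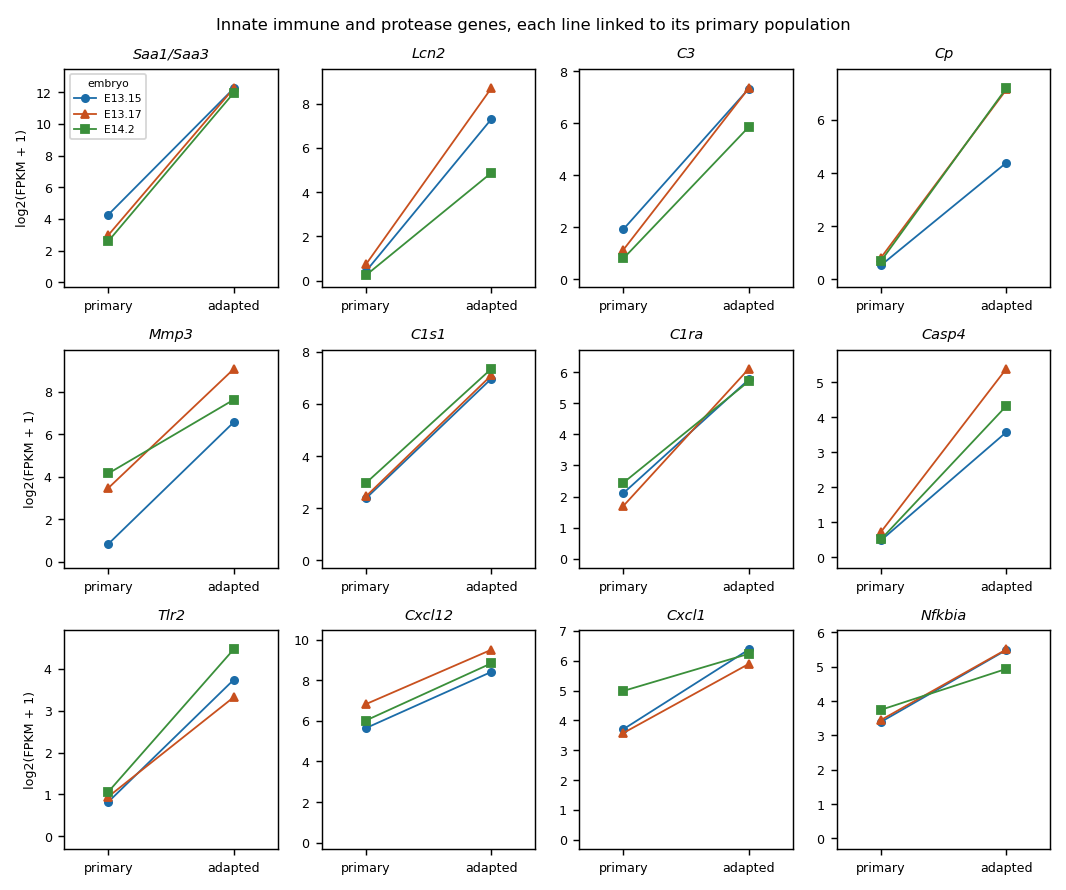
log2(FPKM + 1) of 12 innate immune and protease genes (y axis) in primary and adapted CIZ1 null cells (x axis), with a line joining the primary population and the adapted line of each embryo. All lines rise. The unit of Saa1 and Saa3 ends at 4831, 4847 and 3982 FPKM, and E14.2 ends lowest for Lcn2.

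Interferon-stimulated genes were highest in E14.2. Of 38 tested, Ifit2 and Isg20 rose, none fell, and 7 were higher without overlap. That count is near the share over all units, of which 17.5% were higher without overlap, so it is not particular to these genes. Isg20, an RNA exonuclease, was at 4.57, 5.32 and 4.35 FPKM in primary and 8.64, 13 and 11.2 FPKM in adapted cells (limma adjusted p = 0.0435, blocked adjusted p = 0.1). The median change against its own primary cells was 0.09 in E13.15, 0.04 in E13.17 and 1.90 in E14.2. Ifit2, which restrains translation of foreign RNA, was at 3.59, 3.54 and 4.59 FPKM in primary and 11.6, 9.36 and 16.5 FPKM in adapted cells (limma adjusted p = 0.034, blocked adjusted p = 0.0763, GC-corrected adjusted p = 0.0663). Its neighbour Ifit1 was at 2.61, 1.53 and 2.44 FPKM in primary and 4.68, 2.11 and 61.6 FPKM in adapted cells, high in adapted E14.2 (limma adjusted p = 0.321).

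The 10 units called with the block were those of Saa1 with Saa3, Saa3, C1s1, C3, Tnmd and Crip2, 3 predicted genes and 1 unit without a symbol. Gm16567 has the same coordinates as the unit of C1s1 (chr6:124530344-124542359), and the 2 units of Saa3 also share a locus. Calls at a shared locus are not separate results, since overlapping units cannot be told apart here. Gm16567 was at 4.86, 2.62 and 5.09 FPKM in primary and 73.7, 68.3 and 83 FPKM in adapted cells (limma adjusted p = 0.00497, blocked adjusted p = 0.0366). Gm7299 was at 2777, 2968 and 1636 FPKM in primary cells and listed at 0 in the 3 adapted lines (limma adjusted p = 5.79e-05, blocked adjusted p = 0.00516). In WT cells the same unit was listed at 0 in primary E13.1 and at 4156 FPKM in the adapted line of that embryo, and the other way round in E13.8 and E14.4, so its zeros are not read as a loss of expression. Gm5814 was at 81.9, 90.1 and 55.3 FPKM in primary cells and listed at 0 after adaptation (limma adjusted p = 0.000332, blocked adjusted p = 0.0155). Predicted genes can share reads with similar copies, which leaves their values uncertain.

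Collagen genes were the clearest group to fall. Of 25 tested, 10 fell and none rose, 19 were lower without overlap and none higher, and the median change was -1.59. By line the median was -0.99, -1.99 and -1.17, and it was -1.31 with the GC and length trend removed, when 5 were called. No collagen was called with the block (limma adjusted p of 0.0708 to 0.108 for the 10). There were 13 calls without adapted E13.15, 8 when adapted E13.17 was left out, 1 when adapted E14.2 was, and 0 when any 1 of the primary populations was.

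Col1a1, which with Col1a2 makes type I collagen, the main fibre of skin, bone and tendon, was at 3186, 2865 and 3078 FPKM in primary and 1007, 446 and 440.0 FPKM in adapted cells. The 3 primary populations were close together and all adapted lines lay well below them. It fell by 2.38 ± 0.34 (limma adjusted p = 0.0262, blocked adjusted p = 0.0708, GC-corrected adjusted p = 0.0513). Col1a2 was at 1559, 1542 and 1594 FPKM in primary and 850.2, 569.9 and 707 FPKM in adapted cells, a smaller fall of 1.16 ± 0.20 (limma adjusted p = 0.0341, blocked adjusted p = 0.0904, GC-corrected adjusted p = 0.078). Col5a1, whose product starts type I fibrils, fell by 2.59 ± 0.34 from 595, 433 and 581 to 143, 61.7 and 74.9 FPKM (limma adjusted p = 0.0235, blocked adjusted p = 0.0708). Col7a1, the anchoring fibril collagen of skin, was at 17.5, 33.6 and 40.9 FPKM in primary and 2.46, 0.408 and 1.59 FPKM in adapted cells, a change of -3.69 ± 0.43 (limma adjusted p = 0.021, blocked adjusted p = 0.0721). Col15a1, a collagen next to basement membranes, changed by -2.96 ± 0.29 and was listed at 0 in adapted E13.17 and E14.2 (limma adjusted p = 0.0194, blocked adjusted p = 0.0708). Col3a1, type III collagen, stayed high in adapted E13.17, at 468, 745 and 493 FPKM in primary and 114, 532 and 48.7 FPKM in adapted cells (limma adjusted p = 0.173).

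Genes of elastic fibres and collagen processing also fell in part. Of 33 tested, 5 fell and none rose, 16 were lower and 1 higher without overlap, and the median change was -0.89. Eln, the gene of elastin, was at 12.6, 33.6 and 16.9 FPKM in primary and 1.22, 0 and 0.423 FPKM in adapted cells and changed by -3.79 ± 0.43 (limma adjusted p = 0.0209, blocked adjusted p = 0.073). Fbn2, fibrillin 2 of embryonic microfibrils, was at 21.5, 25.9 and 20.4 FPKM in primary and 0.951, 2.91 and 0.433 FPKM in adapted cells and changed by -3.40 ± 0.38 (limma adjusted p = 0.0209, blocked adjusted p = 0.0708). Efemp1, a fibulin, fell from 19.7, 24.4 and 23.8 to 2.76, 3.51 and 9.91 FPKM (limma adjusted p = 0.0459, blocked adjusted p = 0.0902, GC-corrected adjusted p = 0.0586). Plod1, a lysyl hydroxylase that prepares collagen for cross-linking, fell by 0.99 ± 0.16 (limma adjusted p = 0.0303, blocked adjusted p = 0.098, GC-corrected adjusted p = 0.0591). Lox, the enzyme that cross-links collagen and elastin, was at 735, 348 and 661 FPKM in primary and 649.8, 436 and 377 FPKM in adapted cells, and those ranges overlapped (limma adjusted p = 0.704).

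Adhesive glycoproteins varied between lines. None of 19 matricellular genes was called, with a median of -1.32. Periostin (Postn) was at 896, 18.1 and 1634 FPKM in adapted and 897, 934 and 1159.8 FPKM in primary cells, low in E13.17 (limma adjusted p = 0.499). Tenascin C (Tnc) was at 1110.0, 728 and 1427 FPKM in primary and 1304, 26 and 167 FPKM in adapted cells, low in E13.17 and E14.2 (limma adjusted p = 0.242). Fibronectin (Fn1) was at 1422, 1386 and 2063 FPKM in primary and 347, 900.0 and 1772 FPKM in adapted cells (limma adjusted p = 0.308). Fibromodulin (Fmod), which binds collagen fibrils, was the 1 gene called among 12 small leucine-rich proteoglycans, at 25.9, 10.2 and 19.2 FPKM in primary and 1.38, 2.15 and 0.0996 FPKM in adapted cells (limma adjusted p = 0.0285, blocked adjusted p = 0.0899, GC-corrected adjusted p = 0.0512). Of 27 basement membrane and integrin genes 3 fell, among them the heparan sulfate core protein Hspg2, from 158, 166 and 200.1 to 75.8, 37.2 and 42 FPKM (limma adjusted p = 0.0322, blocked adjusted p = 0.0907, GC-corrected adjusted p = 0.0781).

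Metalloproteinases and their inhibitors held few calls, in both directions. Of 27 tested 1 rose and 2 fell, with a median of -0.19. Without overlap 6 were higher and 4 lower, near the 17.5% and 19.6% over all units. Stromelysin Mmp3 rose, from 0.777, 10 and 16.7 FPKM in primary to 93.3, 534 and 195 FPKM in adapted cells, with the highest level in E13.17 (limma adjusted p = 0.0466, blocked adjusted p = 0.0708, GC-corrected adjusted p = 0.0684). The collagenase Mmp13 was at 0.845, 5.2 and 4.02 FPKM in primary and 6.06, 894 and 24.6 FPKM in adapted cells, high in adapted E13.17 (limma adjusted p = 0.191). Timp1, an inhibitor of these enzymes, fell by 1.87 ± 0.33 from 804, 581 and 978 to 302, 209 and 147 FPKM (limma adjusted p = 0.0355, blocked adjusted p = 0.0957, GC-corrected adjusted p = 0.0873), and the membrane-bound Mmp17 changed by -2.35 ± 0.26 (limma adjusted p = 0.0209, blocked adjusted p = 0.0708).

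**Figure D3:**
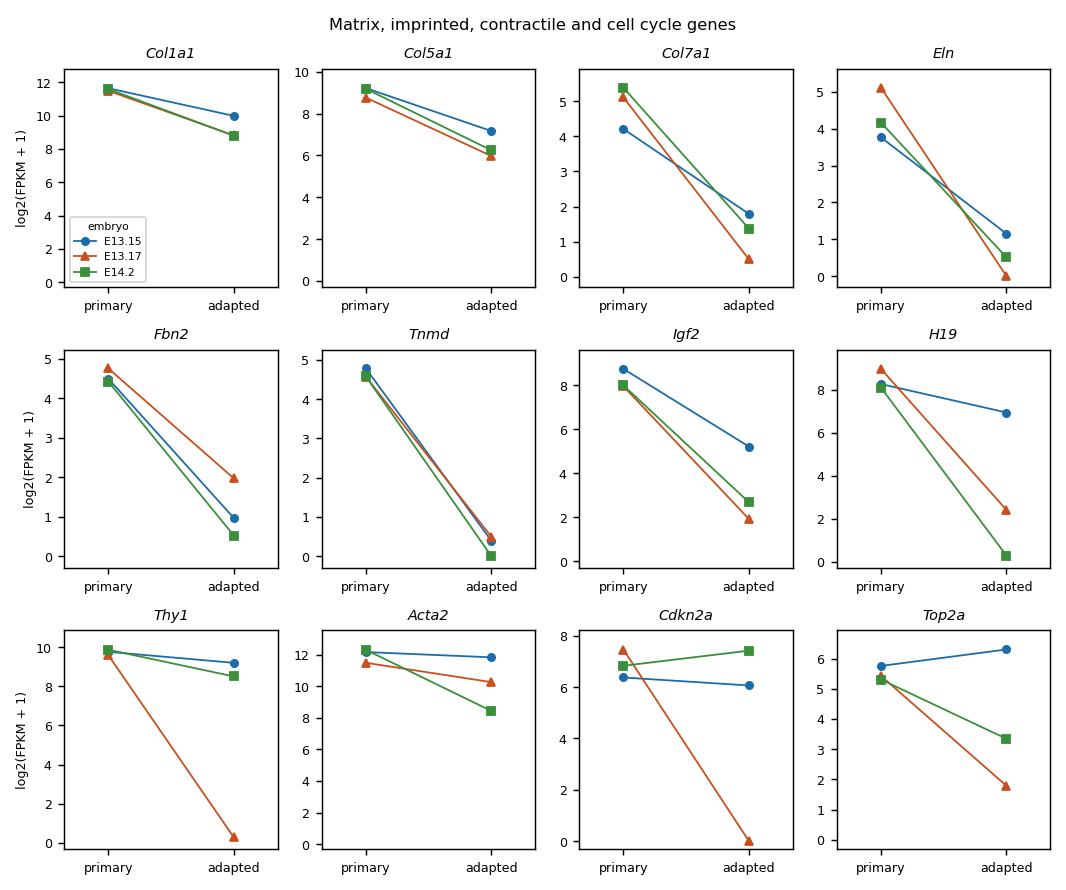
log2(FPKM + 1) of 12 matrix, imprinted, contractile and cell cycle genes (y axis) in primary and adapted CIZ1 null cells (x axis), with a line joining the samples of each embryo. Collagen, elastic fibre and tendon genes and Igf2 fall in all 3 lines, while Thy1 and Cdkn2a drop to 0.215 and 0 FPKM in E13.17 alone and Top2a is lowest there.

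Among differentiation markers the tendon gene Tnmd fell furthest. Tenomodulin (Tnmd, chrX:133850979-133865577) was at 26.5, 22.7 and 22.8 FPKM in primary and 0.311, 0.408 and 0 FPKM in adapted cells. No adapted line came near the primary range. Its change of -4.35 ± 0.20 was called in the limma fit with and without the block (adjusted p = 0.0298 and 0.0013). Scx, the tendon transcription factor, was at 2.65, 14.5 and 3.98 FPKM in primary and 0.387, 13.2 and 0.482 FPKM in adapted cells, highest in E13.17 in both states (limma adjusted p = 0.497). Cardiac troponin T (Tnnt2) was at 11.6, 12.5 and 34.6 FPKM in primary cells and listed at 0 in the 3 adapted lines (limma adjusted p = 0.0194, blocked adjusted p = 0.0708). The brain-type creatine kinase Ckb fell from 52.1, 56.9 and 106 to 12.6, 4.56 and 6.4 FPKM (limma adjusted p = 0.0243, blocked adjusted p = 0.073, GC-corrected adjusted p = 0.0553). The pericyte proteoglycan Cspg4 fell from 29.1, 20.8 and 27.8 to 4.38, 1.34 and 1.18 FPKM (limma adjusted p = 0.0215, blocked adjusted p = 0.0708).

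Contractile genes of smooth muscle and myofibroblasts were lower in 32 of 33 genes tested, though only 2 fell in the test across all units. The groups did not overlap for 16, all lower, and the median change was -1.11, with medians by line of -0.50, -0.91 and -2.10. Their summed level was 19051, 13542 and 21132 FPKM in primary and 15045, 6844 and 4269 FPKM in adapted cells, lowest in E14.2. Desmin (Des), the intermediate filament of muscle, was at 8.63, 10.7 and 6.14 FPKM in primary and 0.55, 0 and 0.305 FPKM in adapted cells (change -2.88 ± 0.28, limma adjusted p = 0.0189, blocked adjusted p = 0.0708), and Pdlim7, an actin-linked scaffold, fell by 1.70 ± 0.29 (limma adjusted p = 0.035, blocked adjusted p = 0.0728, GC-corrected adjusted p = 0.0823). Smooth muscle actin Acta2 was at 4634, 2889.9 and 5108 FPKM in primary and 3677, 1233 and 347 FPKM in adapted cells, a change of -1.81 ± 0.81 that did not pass (limma adjusted p = 0.192). Transgelin (Tagln), an actin-binding protein, was at 2375, 1493 and 2604 FPKM in primary and 1545, 305 and 100.4 FPKM in adapted cells (limma adjusted p = 0.136). Without adapted E13.15 18 contractile genes were called, 1 when adapted E13.17 was left out, and 0 when any 1 of the other libraries was.

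Many contractile genes are known targets of serum response factor (Srf), which binds the CArG box, so the 5 contractile promoters that hold that motif are shown, followed by that of Dusp5 from the immediate-early list, which fell. Where a promoter holds more than 1 box, 1 is shown. Windows are from RefSeq on GRCm38, 5′ to 3′ on the strand of the gene, with the CArG box in capitals.
Cnn2, chr10:79988534-79988563, plus strand: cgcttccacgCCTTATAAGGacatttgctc
Myl6, chr10:128493040-128493069, minus strand: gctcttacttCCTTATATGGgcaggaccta
Myl9, chr2:156775293-156775322, plus strand: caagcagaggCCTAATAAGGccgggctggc
Srf, chr17:46556205-46556234, minus strand: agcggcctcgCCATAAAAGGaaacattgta
Vcl, chr14:20929161-20929190, plus strand: cccactatgcCCTTATAAGGagcgccccgc
Dusp5, chr19:53529053-53529082, plus strand: ggggaaatacCCATATTTGGccttatatgg
Of 27 contractile genes with a promoter sequence 5 (18.5%) held the box within 250 bases before the start on either strand, against 1.62% of all RefSeq genes with a sequence. The list was chosen from known contractile genes, many of them Srf targets, and includes Srf. Its share follows from that choice and is no result about adaptation. Neither of the 2 contractile genes that fell held it. Srf itself was at 36.2, 27.7 and 37.4 FPKM in primary and 24.2, 13.7 and 10.8 FPKM in adapted cells, a change of -1.08 ± 0.31 that did not pass (limma adjusted p = 0.0884). Dusp5, a phosphatase that inactivates ERK and an immediate-early gene, fell by 2.65 ± 0.42, from 20.7, 12.5 and 30.5 to 3.56, 3.03 and 1.03 FPKM (limma adjusted p = 0.0305, blocked adjusted p = 0.0966, GC-corrected adjusted p = 0.0653).

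Immediate-early genes were mostly lower. Of 31 tested 3 fell and none rose, 14 were lower without overlap and none higher, and the median was -0.95. None of the 3 was called with the GC and length trend removed. Jun, a subunit of AP-1, was at 57.9, 38.3 and 50.3 FPKM in primary and 24.4, 23.9 and 19 FPKM in adapted cells (limma adjusted p = 0.047, blocked adjusted p = 0.104, GC-corrected adjusted p = 0.135), and Arc fell by 1.37 ± 0.23 (limma adjusted p = 0.0322, blocked adjusted p = 0.101, GC-corrected adjusted p = 0.0823). Fos, the partner of Jun, was at 4.31, 6.7 and 8.47 FPKM in primary and 4.34, 23.3 and 0.776 FPKM in adapted cells, with the highest value of all in adapted E13.17 (limma adjusted p = 0.871).

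Growth factor genes moved in both directions, the largest fall being that of Igf2. Igf2 (chr7:142650765-142670356), an imprinted fetal growth factor, was at 429, 249 and 255 FPKM in primary and 36.2, 2.8 and 5.44 FPKM in adapted cells. The highest adapted line was E13.15, and it too lay well below the primary range (change -4.96 ± 0.82, limma adjusted p = 0.0324, blocked adjusted p = 0.0708, GC-corrected adjusted p = 0.0535). H19, the imprinted RNA that shares its control region, was at 304, 497 and 272 FPKM in primary and 121, 4.27 and 0.207 FPKM in adapted cells. It was lower in every line, least in E13.15, and its change of -5.23 ± 1.56 did not pass (limma adjusted p = 0.0916). Dlk1, another imprinted gene, was at 188, 134 and 108 FPKM in primary and 163, 0.0622 and 2.53 FPKM in adapted cells, so adapted E13.15 kept a level within the primary range (limma adjusted p = 0.18). Over 32 imprinted genes tested 1 rose (Sgce, change 1.34 ± 0.20, limma adjusted p = 0.0283, blocked adjusted p = 0.0848, GC-corrected adjusted p = 0.0638) and 2 fell (Igf2 and the amino acid transporter Slc38a4, change -2.74 ± 0.49, limma adjusted p = 0.0375, blocked adjusted p = 0.0814), with a median of -0.13.

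Igfbp5, which binds and stores IGF in the matrix, fell from 13.1, 10.7 and 19.5 to 0.722, 0.206 and 0.497 FPKM (change -3.36 ± 0.27, limma adjusted p = 0.012, blocked adjusted p = 0.0708). Its groups did not overlap. Fgf7, the keratinocyte growth factor, rose by 2.10 ± 0.33, from 45.4, 19.5 and 43.1 to 149, 145 and 151 FPKM, and the 3 adapted lines were nearly equal (limma adjusted p = 0.0303, blocked adjusted p = 0.0776, GC-corrected adjusted p = 0.0562). Gdnf, a neurotrophic ligand, rose from 0.519, 0.262 and 0.693 to 2.27, 4.51 and 6.43 FPKM (limma adjusted p = 0.0422, blocked adjusted p = 0.0958, GC-corrected adjusted p = 0.0551), and Pdgfc, a ligand of PDGF receptor alpha, fell by 1.65 ± 0.26 (limma adjusted p = 0.0298, blocked adjusted p = 0.0854, GC-corrected adjusted p = 0.0503). Of 34 PDGF, FGF, EGF and HGF ligands and receptors 2 rose and 4 fell.

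In the TGF-beta family the ligand Tgfb3 fell, from 114, 85.7 and 153 to 28.7, 23 and 11 FPKM (limma adjusted p = 0.0296, blocked adjusted p = 0.0929, GC-corrected adjusted p = 0.0518), and the co-receptor Tgfbr3 rose, from 8.53, 6.5 and 8.05 to 31.5, 22.6 and 42.5 FPKM (limma adjusted p = 0.025, blocked adjusted p = 0.0708), these being the only calls among 39 genes. Of 29 Wnt, Hedgehog and Notch genes the Notch target Hes1 fell by 2.00 ± 0.36 (limma adjusted p = 0.0372, blocked adjusted p = 0.076, GC-corrected adjusted p = 0.0633). Semaphorin, ephrin, netrin and slit genes gave 3 falls and no rise among 41. The ephrin receptor Epha3 had the largest change of these, at 7.27, 5.54 and 7.38 FPKM in primary and 0.366, 0.151 and 0.45 FPKM in adapted cells (limma adjusted p = 0.0126, blocked adjusted p = 0.0708). The gap junction gene Gjb2 (chr14:57098480-57104702) fell from 71.4, 21.7 and 48.4 to 0.598, 1.97 and 0 FPKM (change -4.69 ± 0.55, limma adjusted p = 0.021, blocked adjusted p = 0.0721). Crip2, a LIM domain protein, fell by 4.12 ± 0.33, from 109, 126 and 111 to 3.69, 9.94 and 4.83 FPKM (limma adjusted p = 0.0116, blocked adjusted p = 0.0586). Its second unit passed with the block as well (limma adjusted p = 0.0368). Gpm6b, a membrane proteolipid, rose from 1.95, 1.66 and 2.57 to 43.5, 17 and 46.5 FPKM (limma adjusted p = 0.0209, blocked adjusted p = 0.0708).

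Cell cycle genes split the 3 lines. None of 45 DNA replication and 49 mitosis genes was called over the 3 lines, and the medians were -0.82 and -1.23, yet the median against its own primary cells was 0.36 and 0.19 in E13.15, -1.63 and -2.62 in E13.17, and -1.24 and -1.50 in E14.2. Without adapted E13.15, the line that went the other way, 31 replication and 41 mitosis genes were called, all lower. On both lists 0 were called when any 1 of the other libraries was left out. The summed level of the mitosis list was 1437, 1367 and 1145 FPKM in primary and 1609, 312 and 401 FPKM in adapted cells. In the 3 WT lines the medians of both lists were 0.40 and 0.74, and all were positive in each line.

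Top2a, the topoisomerase that separates sister chromatids, was at 53, 42 and 38.5 FPKM in primary and 77.8, 2.45 and 9.14 FPKM in adapted cells (limma adjusted p = 0.328). Mki67, the gene of the proliferation antigen Ki-67, was at 17.1, 12.2 and 15.3 FPKM in primary and 22.3, 0.34 and 2.02 FPKM in adapted cells (limma adjusted p = 0.271). In both, adapted E13.15 was the highest of the 6 samples and adapted E13.17 the lowest. The mitotic kinase Cdk1 was at 141, 108 and 97.5 FPKM in primary and 294, 23.1 and 49.9 FPKM in adapted cells (limma adjusted p = 0.619), and Ccnb1, its cyclin, at 38.5, 32.9 and 25.9 FPKM in primary and 31, 1.18 and 6.24 FPKM in adapted cells (limma adjusted p = 0.187). Cdc20, which activates the anaphase-promoting complex, was lower in all 3 lines, at 53.5, 65 and 39.2 FPKM in primary and 18.9, 2.23 and 3.24 FPKM in adapted cells (limma adjusted p = 0.0562). The sliding clamp Pcna was at 99.6, 84.4 and 88.5 FPKM in primary and 188, 56.5 and 89.5 FPKM in adapted cells, with E14.2 inside the primary range (limma adjusted p = 0.871). Rates of division were not measured in these samples.

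**Figure D4:**
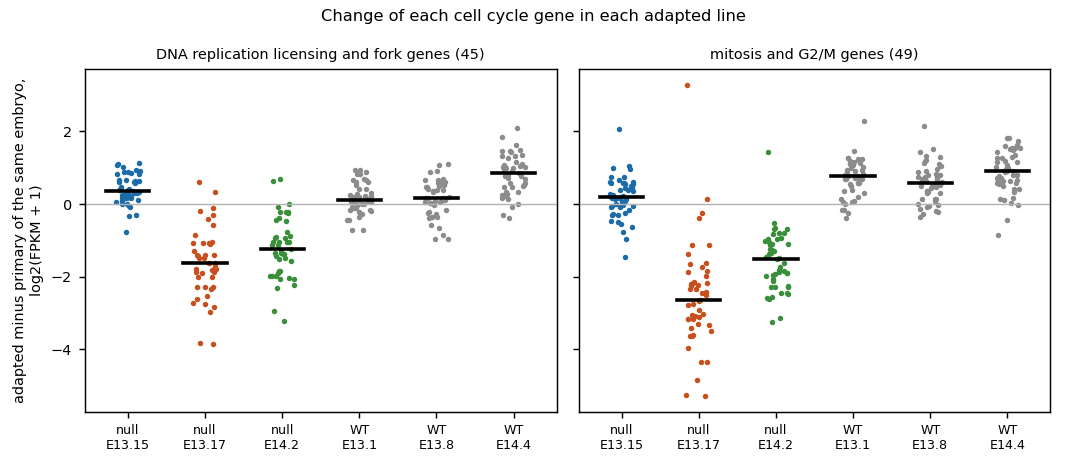
Change of each replication gene (left, 45) and mitosis gene (right, 49) in each adapted line against the primary population of the same embryo (y axis, log2(FPKM + 1)), with a dot per gene and a black bar at the median. Of the CIZ1 null lines (coloured) E13.15 has mitosis median 0.19, E13.17 -2.62 and E14.2 -1.50, while the 3 WT lines (grey) lie at 0.77, 0.58 and 0.92.

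Growth arrest genes also differed by line. Cdkn2a (chr4:89274470-89295056), which encodes p16 and p19ARF, was at 82.2, 176 and 113 FPKM in primary and 66.1, 0 and 171 FPKM in adapted cells. It was listed at 0 in adapted E13.17, as were its other units, and was highest of the adapted lines in E14.2 (limma adjusted p = 0.414). Its neighbour Cdkn2b, the gene of p15, was at 54.4, 58.8 and 61 FPKM in primary and 8.15, 27.6 and 15.3 FPKM in adapted cells, lower in all 3 lines (limma adjusted p = 0.0524). Cdkn1a, the p53 target that encodes p21, fell by 1.14 ± 0.21, from 262, 245 and 225 to 138, 90.1 and 107 FPKM (limma adjusted p = 0.0377, blocked adjusted p = 0.0957, GC-corrected adjusted p = 0.0953). Trp53, the gene of p53, was at 87.9, 95.7 and 91.9 FPKM in primary and 84.9, 72.3 and 88.5 FPKM in adapted cells (limma adjusted p = 0.526). Of 34 genes of p53 and its direct targets, Phlda3 and Cdkn1a fell (Phlda3 by 1.26 ± 0.18, limma adjusted p = 0.0262, blocked adjusted p = 0.0818, GC-corrected adjusted p = 0.129) and the p53 inhibitor Mdm4 rose by 0.96 ± 0.19 (limma adjusted p = 0.0449, blocked adjusted p = 0.102, GC-corrected adjusted p = 0.149). Ccnd1, the G1 cyclin, was at 62.6, 72.7 and 82.6 FPKM in primary and 49.6, 34.8 and 40 FPKM in adapted cells (limma adjusted p = 0.0705).

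Sterol and lysosomal genes separated the lines in other ways. The median change of 23 sterol synthesis genes was -1.35, -2.45 and 0.22 by line. Of these genes 1 fell and none rose, and 7 were lower without overlap. Sqle, squalene epoxidase, was at 55.2, 65.6 and 67.1 FPKM in primary and 22.6, 19.4 and 95.3 FPKM in adapted cells, highest in adapted E14.2 (limma adjusted p = 0.385). The 35 lysosomal and cathepsin genes held no call. Their summed level was 2774, 3656 and 4000.3 FPKM in primary and 3058, 4705 and 10251 FPKM in adapted cells, highest in E14.2. Of the 35, 8 were higher and 3 lower without overlap, against 17.5% and 19.6% of all units. Single members of the other metabolic lists fell: Eno1 of glycolysis by 1.47 ± 0.29 (limma adjusted p = 0.0455, blocked adjusted p = 0.0763, GC-corrected adjusted p = 0.109), Uqcrfs1 of respiratory complex III by 0.99 ± 0.15 (limma adjusted p = 0.0288, blocked adjusted p = 0.098, GC-corrected adjusted p = 0.0501) and Rpl11 of the large ribosomal subunit by 1.16 ± 0.19 (limma adjusted p = 0.0307, blocked adjusted p = 0.0834, GC-corrected adjusted p = 0.0687). Edem1 and Sdf2l1, which serve protein quality control in the endoplasmic reticulum, fell by 2.37 ± 0.22 (limma adjusted p = 0.0165, blocked adjusted p = 0.0708) and 2.06 ± 0.24 (limma adjusted p = 0.021, blocked adjusted p = 0.0708).

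Fibroblast markers were mostly lower in the adapted lines. Of 15 tested Col1a1, Col1a2 and vimentin (Vim) fell and none rose, 11 had a negative and 4 a positive change, and the median was -1.16. Vim, the mesenchymal intermediate filament, was at 2370.2, 2709 and 2465 FPKM in primary and 1045, 677 and 1049 FPKM in adapted cells (limma adjusted p = 0.0282, blocked adjusted p = 0.0899). Thy1, a surface glycoprotein of fibroblasts, was at 864, 769 and 929.7 FPKM in primary and 584, 0.215 and 361 FPKM in adapted cells, near 0 in adapted E13.17 (limma adjusted p = 0.31). The receptor Pdgfra was at 16.3, 18.3 and 19.4 FPKM in primary and 63.2, 8.77 and 28 FPKM in adapted cells, lowest in adapted E13.17 and highest in adapted E13.15 (limma adjusted p = 0.65).

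Hox genes, which record the position of a fibroblast along the body, also differed by line. None of 23 tested was called, and the medians by line were 0.00, -2.01 and 0.49. Hoxa9 was at 6.56, 6.57 and 7 FPKM in primary and 2.28, 22.5 and 0 FPKM in adapted cells (limma adjusted p = 0.614), and Hoxa10 at 7.35, 9.62 and 10.7 FPKM in primary and 1.15, 26.5 and 0 FPKM in adapted cells (limma adjusted p = 0.453). Both were listed at 0 in adapted E14.2 and were highest in adapted E13.17. The unit of Hoxc10 was at 6.55, 0 and 6.19 FPKM in adapted and 9.93, 12.5 and 11 FPKM in primary cells (limma adjusted p = 0.203). Of 44 mesenchymal and limb transcription factors 2 fell, Zic1 by 1.81 ± 0.27 (limma adjusted p = 0.027, blocked adjusted p = 0.0899) and Tbx2 by 1.26 ± 0.23 (limma adjusted p = 0.0376, blocked adjusted p = 0.105, GC-corrected adjusted p = 0.144).

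Blood cell transcripts were lower in adapted cells. Of 16 macrophage and haematopoietic markers tested 2 fell, the haemoglobin genes Hba-a1 (change -2.27 ± 0.29, limma adjusted p = 0.0231, blocked adjusted p = 0.0708, GC-corrected adjusted p = 0.0564) and Hbb-bt (change -1.65 ± 0.20, limma adjusted p = 0.0215, blocked adjusted p = 0.073), and 10 were lower without overlap. The summed level was 32.4, 166 and 166 FPKM in primary and 13.5, 17.7 and 27.8 FPKM in adapted cells, so primary E13.15 held less than the other primary populations. Lyz2, lysozyme of macrophages, was at 5.58, 71.9 and 50.7 FPKM in primary and 3.04, 1.33 and 13.2 FPKM in adapted cells (limma adjusted p = 0.172), and Tyrobp, an adaptor of myeloid receptors, at 0.179, 9.52 and 9.87 FPKM in primary and 0, 0 and 0 FPKM in adapted cells (limma adjusted p = 0.133). In bulk samples fewer cells of a type and less RNA per cell cannot be told apart. C1qa, which macrophages make and which starts the classical complement pathway, was at 0.325, 11.7 and 14.8 FPKM in primary cells and listed at 0 in the adapted lines, while the C1r and C1s genes above rose. Of the 16 markers 14 were lower and 2 higher in the means, and Ptprc, the pan-leukocyte marker, lay at 0.115 to 0.787 FPKM. The part of these cells in the falls of other genes was not tested. Of 4 epithelial markers tested, 3 were lower without overlap and none passed, the keratin Krt19 measuring 11.8, 14.9 and 11 FPKM in primary and 0.906, 6.42 and 0 FPKM in adapted cells (limma adjusted p = 0.0817).

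Other lists held few calls. Among 29 cadherins and adhesion molecules 1 rose and 2 fell, the falls being the protocadherin Pcdh19, from 14.7, 6.98 and 13.6 to 0.722, 2.59 and 1.93 FPKM (limma adjusted p = 0.0348, blocked adjusted p = 0.1), and the syndecan Sdc3, by 1.92 ± 0.39 (limma adjusted p = 0.0468, blocked adjusted p = 0.0712, GC-corrected adjusted p = 0.106). Of 36 NRF2 and glutathione genes Sod2 rose and the peroxidase Gpx7 fell by 1.19 ± 0.20 (limma adjusted p = 0.0328, blocked adjusted p = 0.1, GC-corrected adjusted p = 0.0828). None of 23 cytokine receptors, 13 fatty acid synthesis genes, 8 adipocyte markers or 3 neural markers was called. Osmr, the oncostatin M receptor, was at 21.8, 19 and 21.3 FPKM in primary and 53.8, 165 and 57.2 FPKM in adapted cells, higher in all 3 lines but short of the threshold (limma adjusted p = 0.0573).

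Polycomb and X-inactivation genes were examined because CIZ1 acts at the inactive X chromosome. Of 30 PRC1 and PRC2 subunits 3 rose and 1 fell, and none of the 4 was called with the GC and length trend removed. The PRC1 subunits Bmi1, Rnf2 and Phc3 rose: Bmi1 from 16.7, 21.7 and 19.3 to 39.1, 43.7 and 43.8 FPKM (limma adjusted p = 0.0303, blocked adjusted p = 0.0907, GC-corrected adjusted p = 0.109), Rnf2 by 1.02 ± 0.17 (limma adjusted p = 0.0342, blocked adjusted p = 0.102, GC-corrected adjusted p = 0.121) and Phc3 by 1.04 ± 0.21 (limma adjusted p = 0.0466, blocked adjusted p = 0.108, GC-corrected adjusted p = 0.137). Phc2, a further PRC1 subunit, fell from 87, 67.9 and 86.6 to 27.5, 19.4 and 15.1 FPKM (limma adjusted p = 0.0235, blocked adjusted p = 0.0721, GC-corrected adjusted p = 0.0556). Ezh2, the PRC2 methyltransferase, was at 12.5, 13.5 and 13.7 FPKM in primary and 23.5, 5.79 and 6.46 FPKM in adapted cells, above the primary range in E13.15 and below it in the other lines (limma adjusted p = 0.609). The units that hold Xist, the RNA that coats the inactive X, rose. The highest of them, which also spans Ftx, went from 29.9, 26.6 and 30.4 to 108, 71.9 and 113 FPKM (change 1.69 ± 0.22, limma adjusted p = 0.0235, blocked adjusted p = 0.0708, GC-corrected adjusted p = 0.0519). A unit named for Xist alone went from 21.7, 21 and 23.5 to 92.9, 62.6 and 103 FPKM (limma adjusted p = 0.0215, blocked adjusted p = 0.0708). Kdm6a, an X-linked H3K27 demethylase that escapes inactivation, rose by 1.10 ± 0.20 (limma adjusted p = 0.0395, blocked adjusted p = 0.107, GC-corrected adjusted p = 0.115). The chromatin protein Hmga1 fell by 1.76 ± 0.20 (limma adjusted p = 0.0209, blocked adjusted p = 0.0708, GC-corrected adjusted p = 0.0521) and lamin A/C (Lmna) by 1.62 ± 0.28, from 449, 461 and 413 to 204, 101 and 142 FPKM (limma adjusted p = 0.0346, blocked adjusted p = 0.0902, GC-corrected adjusted p = 0.062).

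Changes by chromosome were read beside GC content. Over 1307 units of chromosome 4 the median change was -0.41, and it was -0.33, -0.36 and -0.50 by line, -0.36 in WT cells and -0.30 with the GC and length trend removed. There 113 units (8.65%) fell and 4 rose, a larger share of falls than the 3.47% over all units. With the GC and length trend removed 22 units there fell and 0 rose, and 0 were called with the block. Chromosome 7 had a median of -0.29 that went to -0.09 without the trend. Chromosome 10 had the highest median, 0.24, and 0.27 without the trend. The part of GC content in the chromosome 4 median was not tested beyond that value.

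**Figure D5:**
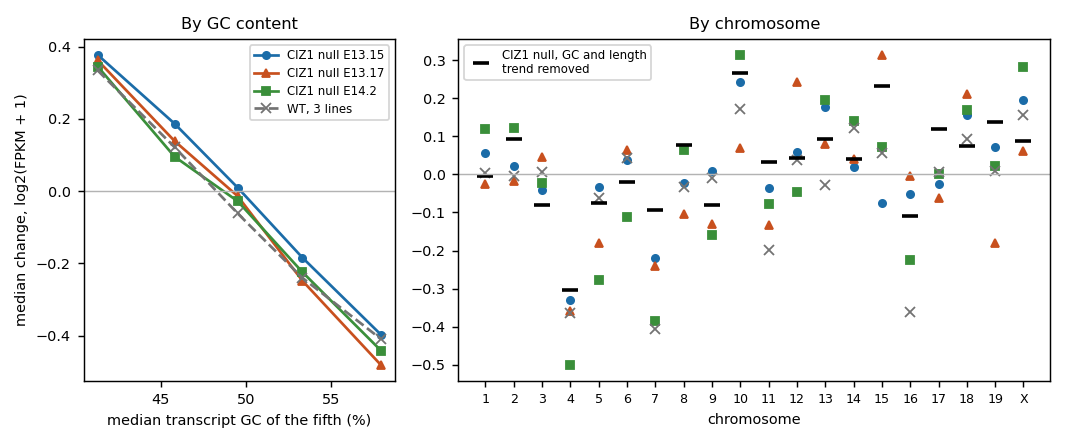
Median change (y axis, log2(FPKM + 1)) of units in 5 equal groups by transcript GC content (left, x axis in percent) and by chromosome (right), for each adapted CIZ1 null line against its own primary cells (coloured) and for WT cells (grey crosses). Black bars on the right are the values with the GC and length trend removed. All lines fall from left to right with GC, from 0.36 to -0.45 in the CIZ1 null median, and chromosome 4 is lowest at -0.41.

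Whether CIZ1 null cells adapt differently from WT cells was tested as the difference of both changes, over 20046 units and 12 samples. None passed in limma (0%), with 928 at an unadjusted p under 0.05 (4.63%), 2 passing with a pseudocount of 0.1. Without adapted E13.15 234 passed (1.16%), of which 221 were lower in CIZ1 null cells (1.1%), and 7 passed (0.035%) when adapted E13.17 was left out instead. Without adapted E13.15 the difference was called for 39 of 49 mitosis and 21 of 45 replication genes, all lower in CIZ1 null cells, with median differences of -2.98 and -1.96. With all lines those medians were -2.13 and -1.30 and none was called. Adapted E13.15 alone of the CIZ1 null lines had positive medians for both lists, as the WT lines had. The 39 and 21 calls therefore rest on leaving that line out and are no separate test of a difference. Without adapted E14.2, 0 units passed over all units. Acute-phase genes had a median change of 2.80 in WT against 1.92 in CIZ1 null cells, while collagens had -1.15 and -1.59. Each WT median covers only those members that also had a mean of at least 1 FPKM in the WT samples, so the gene sets can differ. Over all 19 acute-phase genes the WT medians by line were 0.87, 2.45 and 1.99 (E13.1, E13.8 and E14.4). The median over genes of the difference, CIZ1 null minus WT, was 0.36 for acute-phase genes and -0.04 for collagens.

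Among the genes with the smallest p for the difference were Slc7a3, Nrn1 and Taf7. Slc7a3, a carrier of cationic amino acids, was at 2.84, 2.51 and 1.77 FPKM in primary and 9.28, 16.5 and 11.9 FPKM in adapted CIZ1 null cells, and at 1.82, 1.74 and 3.63 and 1.75, 0.625 and 0.296 FPKM in the WT embryos, given as E13.1, then E13.8, then E14.4. It rose in CIZ1 null cells (limma adjusted p = 0.0228, blocked adjusted p = 0.0721), and the difference of 2.86 had a limma adjusted p of 0.34. Nrn1, neuritin, was at 4.75, 4.67 and 4.46 and 2.26, 3.63 and 1.15 FPKM in CIZ1 null and 6.97, 10.4 and 4.43 and 47.2, 28.8 and 36.8 FPKM in WT cells, a difference of -3.08 (limma adjusted p = 0.278). Taf7, a general transcription factor subunit, was at 1.92, 6.84 and 1.9 and 18.1, 5.25 and 9.73 FPKM in CIZ1 null and 25.6, 7.1 and 16.8 and 0, 0 and 0 FPKM in WT cells (limma adjusted p = 0.278). The unit of Taf7 overlaps others, and its listed zeros in adapted WT cells can be failed estimates and are not read as a loss of expression. None of these differences passed the correction.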

How the data were processed

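Poly(A) RNA of the 3 primary and 3 culture-adapted CIZ1 null populations was sequenced. The authors trimmed paired reads with cutadapt 1.8.3, aligned them to GRCm38 with HISAT2 2.0.5, assembled and merged transcripts with Cufflinks and deposited Cuffnorm FPKM for 65522 transcription units. The tables of the authors' own Cuffdiff 2.2.1 comparisons, with group means, fold changes and p-values, were not used. FPKM hides counts, so depth was judged only from the smallest steps between values and no counting interval was made.

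Samples were grouped by their labels, and the embryo of each library from the study's tables, whose values equalled the deposited ones within a relative tolerance of 0.0001. One primary sample labelled by its title as S06 carries a source name that reads S13. Units with a mean of at least 1 FPKM over the 6 samples were tested as log2(FPKM + 1) with limma 3.58.1 in R 4.3.3 (intensity trend, Benjamini-Hochberg adjustment over all units, threshold 0.05). The same fit was made with the embryo as a block, since each primary population and adapted line share an animal. Deviations from the group means correlated by -0.019 (E14.2), 0.106 (E13.15) and 0.088 (E13.17) within embryos. GC content and length came from the longest annotated transcript of each gene. The fit was tested on simulated data. Of 1420 genes on 44 lists, 11 had no unit and were not analysed here. Values of some list members are not reported here. Members, lists and the alternative on GC content were chosen with earlier results of these data known. Genes are named where they had the 12 largest called rises or falls with a group mean of at least 5 FPKM, where they had the largest called changes of a list, where they define a cell type or process, where they were called with the block, or where the difference from WT had the smallest p. Hmgn2-ps1, named by that last rule, is given among the other observations. Isg20, Gm7299 and other genes overlap a further unit in the genome, as did 939 of the 975 called units, and without strand information overlapping units cannot be told apart. Alternatives were another pseudocount, other filters, quantile normalization, array weights, other sample sets and leaving out each library.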

Additional observations from a re-analysis of the deposited data

Results flagged for a closer look

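Groups of 3 samples were not searched for single outlying samples. In 7 of the genes named, all 3 CIZ1 null lines moved one way against their own primary cells and all 3 WT lines the other way, which is what drew attention to them. None of these differences passed the correction over all units in limma, and changes by line are given on the log2(FPKM + 1) scale in the order of the embryos (E13.15, E13.17, E14.2 for CIZ1 null, then E13.1, E13.8, E14.4 for WT).

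Ccnb1, the mitotic cyclin, changed by -0.30, -3.96 and -1.90 in CIZ1 null and 0.95, 0.57 and 0.97 in WT cells, a difference of -2.88 ± 1.03 (SE, limma adjusted p = 0.996). Plk1, a mitotic kinase, moved by -0.78, -4.36 and -2.57 in CIZ1 null and 0.14, 0.15 and 0.13 in WT cells, a difference of -2.70 ± 1 (SE, limma adjusted p = 0.996). Ccnd1, the G1 cyclin, had changes of -0.33, -1.04 and -1.03 in CIZ1 null and 0.31, 0.05 and 0.46 in WT cells, a difference of -1.07 ± 0.31 (SE, limma adjusted p = 0.996). Ccnb1, Plk1 and Ccnd1 were lower in each CIZ1 null line, least in E13.15. Most cell cycle genes did not share this in E13.15, where 39 of 45 replication and 31 of 49 mitosis genes rose. Nrn1, neuritin, changed by -0.82, -0.29 and -1.35 in CIZ1 null and 2.60, 1.39 and 2.80 in WT cells, a difference of -3.08 ± 0.46 (SE, limma adjusted p = 0.278). Slc7a3, a cationic amino acid carrier, moved by 1.42, 2.32 and 2.22 in CIZ1 null and -0.03, -0.76 and -1.84 in WT cells, a difference of 2.86 ± 0.46 (SE, limma adjusted p = 0.34). Nrn1 was lower and Slc7a3 higher in CIZ1 null lines. Serping1, the inhibitor of the C1 complement proteases, had changes of 2.52, 0.17 and 2.01 in CIZ1 null and -0.54, -2.57 and -1.06 in WT cells, a difference of 2.96 ± 1.08 (SE, limma adjusted p = 0.996). Hoxa7, a Hox gene, changed by 0.26, 1.16 and 0.54 in CIZ1 null and -0.26, -0.02 and -0.08 in WT cells, a difference of 0.77 ± 0.54 (SE, limma adjusted p = 0.996).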

How the results depend on the processing

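Most calls depended on the embryo block and on single libraries. The 975 calls became 10 with the embryo block, 8 with the block and the GC and length trend removed, 243 with that trend removed alone (77 higher and 166 lower), 322 with no filter, 449 with all 4 untreated primary samples, 30 without the transgenic primary sample, 1936 with array weights and 2969 with all 4 groups in 1 fit, and 25 to 2999 when a library was left out. Calls among list members went from 87 to 46 with no filter, 4 with the block, 36 and 4 with the trend removed without and with the block, 177 with all 4 groups, 7 without the transgenic primary sample, 169 with array weights, and 6 to 317 when a library was left out. Leaving out adapted E13.15 gave 2999 and 317, and leaving out any primary population or adapted E14.2 gave 40 calls or fewer. The number of units whose change differed between CIZ1 null and WT cells was 0, and became 2 with a pseudocount of 0.1 and 0 to 234 when a library was left out, 234 without adapted E13.15 and 7 when adapted E13.17 was left out. A pseudocount of 0.1 (874 calls), a filter at 5 FPKM (946) and quantile normalization (852) stayed within 1.5 times of the main count. None of the 88 called units named in the text reversed its direction under these alternatives. Among those not called 9 did. The log2 change, with its range when a library was left out, of Cdk1 was -0.69 (range -1.72 to 0.0891), Fos was -0.25 (range -1.24 to 0.65), Hoxa9 was -0.86 (range -2.09 to 0.19), Pdgfra was 0.47 (range -0.17 to 1.18), Pcna was 0.12 (range -0.34 to 0.51), Postn was -1.71 (range -2.92 to 0.29) and Rela was -0.06 (range -0.14 to 0.0105). The change was 0.0551 for Lox (-0.22 as reported), 0.11 for Rela and 0.0797 for Trp53 (-0.17 as reported) with quantile normalization, 0.00907 for Fos and 0.0513 for Rela with all 4 untreated primary samples, and 0.45 for Rela and 0.0554 for Trp53 with the GC and length trend removed, with or without the block. Of those 88 units, 79 were not called with the block. The causes were not tested. The alternatives on GC content were chosen after seeing the data. Depth relative to the primary samples was lowest in adapted E14.2 (0.448), which limits low values there.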

Other observations

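Some transcripts marked a single adapted line, and they are given as values without a test of their own. Adapted E13.17 was the only CIZ1 null line with high Mmp13 (894 FPKM) and Clu (217 FPKM), and the only one with Thy1 near 0 (0.215 FPKM) and Cdkn2a listed at 0. Adapted E14.2 had the highest Ifit1 (61.6 FPKM) and the lowest Acta2 (347 FPKM). Adapted E13.15 had the highest Cdk1 (294 FPKM) and Dlk1 (163 FPKM) of the 3 lines. These traits did not fall together in 1 line.

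Hmgn2-ps1, a pseudogene whose reads may come from its parent gene, was at 3.18, 2.76 and 2.3 FPKM in primary and listed at 0 in adapted CIZ1 null cells, and was at 1.93, 0.708 and 2.69 FPKM in primary and 4.41, 4.64 and 2.49 FPKM in adapted WT cells (limma adjusted p of the difference = 0.278).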
